A study of Mus musculus with 8 samples.

Results

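The genes described here are 33 mouse genes named as imprinted, from H19, Igf2, Dlk1, Meg3 and Peg3 to Zrsr1, read on arrays of 3T3-L1 cells. They were listed by symbol. A probe was matched to 32 of the 33 through its RefSeq accession. Of these, 27 genes were kept because 2 or more of the 8 arrays read them well above background, among 26460 genes and unnamed transcripts tested in all. No probe was matched to H19, and Zim1, Phlda2, Grb10 and Rasgrf1 were well above background on 0 arrays and Nap1l5 on 1 array. Among the 27 genes kept, 23 were well above background on all 8 arrays and 15 had more than 1 probe.

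An imprinted gene is transcribed mainly from the copy inherited from the mother or mainly from the copy inherited from the father. The choice is set by DNA methylation laid down in the egg or the sperm at a control region, and the genes tend to lie in domains that share such a region. Many of them act on growth, and Dlk1 (preadipocyte factor 1, a membrane protein with repeats like those of epidermal growth factor) is known for holding back fat cell formation and for falling as 3T3-L1 cells differentiate. These arrays measure the summed RNA of both copies, so neither parental copy nor imprinting itself was measured.

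3T3-L1 is a mouse embryo fibroblast line that turns into fat cells under hormones. The sh8 cells carry a stably transfected hairpin, shRNA-8, against the long noncoding RNA slincRAD, and the WT cells are the parental line without it. Each line was sampled once on day -2, on day 0 (confluence) and on days +2 and +4 of induction with insulin at 167 nM, dexamethasone at 1 µM and isobutylmethylxanthine at 0.5 mM, which gives 8 arrays. The sh8 cells are a single hairpin line with no line carrying a control hairpin beside them, slincRAD itself was not analysed here, and no label gives separate cultures, so p-values measure only the spread between these arrays.

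Values are log2 processed signals relative to the array's 75th percentile, where 0 stands for a signal equal to it and a difference of 1 is 2-fold. The percentile itself ranged from 761 to 1242 units of signal, and 64.9% to 81.7% of the probes of an array were well above background. Slides were inferred from the scan times and repeated array positions in the file headers. Days -2 and 0 share the earlier scan, taken as the first slide, and days +2 and +4 the later, taken as the second. Period and slide therefore cannot be told apart, while each slide held both lines. The 6 fibroblast and preadipocyte markers were all well above background on every array. Markers of other tissues stood apart on the second slide. The summed level of 7 lung epithelium markers (8 listed, 7 with a probe) was 10.7 and 11.4 in sh8 cells and 7.47 and 10.0 in WT cells on days +2 and +4, in units of the 75th percentile, against 0.605 and 0.620 in sh8 cells and 0.372 and 0.423 in WT cells on days -2 and 0. All 7 were well above background on each array of the second slide, and 3 to 5 of them on each array of the first. The 5 red blood cell markers summed to 3.78 to 5.66 on the second slide and 0.474 to 0.744 on the first. Their part in the results on these genes was not tested.

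The promoters of 4 genes are shown because the results turn on them. Dlk1 and Meg3 share a domain on chromosome 12 and fell together after induction, and Kcnq1ot1 and Slc22a18 share a domain on chromosome 7 and are the gene with the largest positive difference of sh8 from WT cells among those past the threshold (Slc22a18) and the gene with the largest interaction, which did not pass (Kcnq1ot1). The sequences are RefSeq's for GRCm38.p6, 5′ to 3′ on the gene's strand, with each CpG, the dinucleotide that carries methylation, in capitals. Those of Dlk1 (chr12:109452573-109452822, plus strand) and Slc22a18 (chr7:143473539-143473788, plus strand) stop at the start of the gene. Those of Meg3 (chr12:109540746-109541045, plus strand, the first of 2 listed) and Kcnq1ot1 (chr7:143296498-143296797, minus strand) run 50 bases into the noncoding transcript.
Dlk1: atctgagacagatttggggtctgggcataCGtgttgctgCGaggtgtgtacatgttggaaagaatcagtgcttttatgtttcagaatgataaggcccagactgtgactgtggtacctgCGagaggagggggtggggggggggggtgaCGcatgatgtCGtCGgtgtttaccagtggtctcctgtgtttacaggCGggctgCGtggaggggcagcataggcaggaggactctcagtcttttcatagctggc
Meg3: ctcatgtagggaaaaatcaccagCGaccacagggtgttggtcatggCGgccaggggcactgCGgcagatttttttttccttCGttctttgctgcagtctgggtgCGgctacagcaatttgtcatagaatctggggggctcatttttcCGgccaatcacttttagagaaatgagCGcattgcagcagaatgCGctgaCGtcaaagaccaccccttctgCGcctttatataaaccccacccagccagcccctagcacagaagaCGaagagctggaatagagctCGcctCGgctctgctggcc
Kcnq1ot1: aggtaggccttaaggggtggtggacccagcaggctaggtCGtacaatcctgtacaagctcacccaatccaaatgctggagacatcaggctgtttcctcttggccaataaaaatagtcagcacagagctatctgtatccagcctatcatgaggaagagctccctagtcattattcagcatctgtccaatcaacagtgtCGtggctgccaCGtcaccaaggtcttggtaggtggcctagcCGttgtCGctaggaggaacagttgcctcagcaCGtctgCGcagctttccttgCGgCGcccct
Slc22a18: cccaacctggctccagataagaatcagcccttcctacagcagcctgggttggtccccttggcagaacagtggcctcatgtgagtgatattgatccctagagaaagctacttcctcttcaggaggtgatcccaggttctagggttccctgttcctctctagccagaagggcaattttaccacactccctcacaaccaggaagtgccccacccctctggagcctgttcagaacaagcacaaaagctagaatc
They hold 8, 13, 9 and 0 CpGs in that order. Over the 39 listed promoters of 23 kept genes, the median was 11 CpGs, and over all 32851 promoters in the table it was 7. The hexamer TGCCGC, the core bound by the imprint-keeping factor Zfp57, was found on either strand in 8 of the 39 promoters, those of Copg2, Igf2, Meg3, Mest, Nnat, Plagl1 and Snrpn, and in 11.6% of all promoters in the table. The cyclic AMP response element TGACGTCA was found in the promoters of Meg3 and Peg3 and in 1.79% of all promoters. The glucocorticoid response palindrome was found in 0 of the 39 and in 0.00913% of all. These letters were searched on both strands, and a match is a description of the window only.

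The comparison of the lines asks which of these genes the hairpin cells held at another level than the parental cells. Slc22a18, Peg3, Slc38a4, Nnat, Magel2 and, at its brighter probe, Asb4 were higher in sh8 cells, and Snrpn, Impact, Copg2, Dlk1 and, at the probe kept, Mest were lower. These 11 of 27 genes (40.7%) passed an adjusted p of 0.05 in limma, where 27.1% of all features tested passed. Mest is counted among them, although only WT arrays took it past the filter. By direction, 6 were higher, against 16.8% of all features, and 5 were lower, against 10.3%. The median change of the 27 genes was 0.070, beside 0.13 for all features. In bulk RNA, fewer cells with a transcript and less of it per cell cannot be told apart. Markers of other cell types also stood higher in sh8 cells: 4 of 5 leukocyte and macrophage markers (summed level 0.865 to 1.23 in sh8 cells and 0.576 to 0.803 in WT cells), 3 of 6 brain markers (2.83 to 3.32 and 2.05 to 2.45) and 2 of 4 endothelial markers (1.52 to 1.89 and 1.01 to 1.30). Of the lung epithelium markers 2 of 7 were higher, and of the red blood cell markers 1 of 5. The fibroblast and preadipocyte markers summed to 328 to 409 in sh8 cells and 256 to 322 in WT cells. Of these 6, 2 were higher and 1 lower. Their part in the differences of the imprinted genes was not tested.

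**Figure D1:**
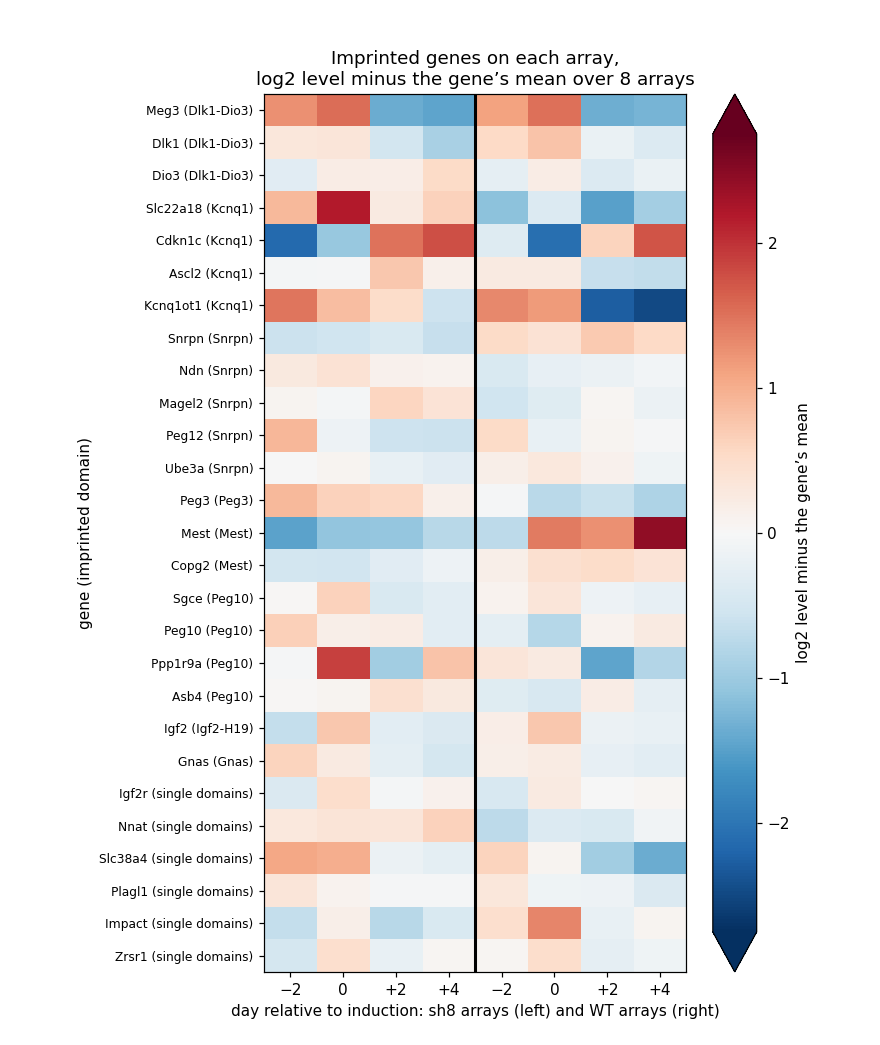
The 27 imprinted genes, in rows by domain, on the 4 sh8 arrays (left) and the 4 WT arrays (right) by day; colour is the log2 level minus the gene's own mean over the 8 arrays. Snrpn and Mest are low and Slc22a18 and Peg3 high across the sh8 arrays, and Meg3 is low in both lines on days +2 and +4.

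The largest positive difference among them was that of Slc22a18, an organic cation transporter at the edge of the Kcnq1 domain that is transcribed from the maternal copy. It read -2.13, -0.84, -2.76 and -2.38 in sh8 cells, in the order of days -2, 0, +2 and +4, against -4.15, -3.40, -4.52 and -3.96 in WT cells. Every sh8 array was above every WT array. The difference was 1.98 ± 0.19 (SE, 4 days; 3.93-fold; limma adjusted p = 0.0106), and 2.29 on the first slide alone and 1.66 on the second.

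Peg3, a paternally transcribed zinc finger protein, read -3.33, -3.60, -3.66 and -4.08 in sh8 cells, against -4.26, -4.98, -4.84 and -5.09 in WT cells. The lines did not overlap, and the difference of 1.12 ± 0.11 (2.18-fold, adjusted p = 0.0115 by limma) was 1.15 on the first slide and 1.09 on the second. Zim1, its maternally transcribed neighbour, was not well above background on any array. Nnat, a small membrane protein known from the developing brain, read -4.37, -4.29, -4.31 and -4.03 in sh8 cells and -5.37, -5.03, -5.07 and -4.76 in WT cells. Again every sh8 array was the higher, by 0.81 ± 0.10 (adjusted p = 0.0137 by limma). A second, dimmer Nnat probe, well above background on 4 arrays, differed by 0.06.

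Slc38a4, an amino acid transporter of placenta and liver, read 1.30, 1.24, 0.08 and -0.05 in sh8 cells, against 0.85, 0.30, -0.73 and -1.14 in WT cells. It was higher in sh8 cells on each of the 4 days, although the lines overlapped across days. The difference was 0.82 ± 0.14 (1.77-fold, adjusted p = 0.0208 by limma).

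The Prader-Willi domain on chromosome 7 moved in both directions. Snrpn, which encodes the spliceosome protein SmN, read -3.08, -3.04, -2.92 and -3.14 in sh8 cells, against -1.98, -2.10, -1.79 and -1.95 in WT cells. It had the lowest adjusted p of the 27 genes and was lower by a similar amount each day, with a change of -1.09 ± 0.09 (2.14-fold, adjusted p = 0.0098 by limma), -1.03 on the first slide and -1.16 on the second. The other probes for this gene differed by -1.42 and -1.58. Magel2, a regulator of ubiquitin ligases, was the only other gene of the domain past the threshold. It read -3.00, -3.15, -2.50 and -2.71 in sh8 cells and -3.64, -3.42, -3.04 and -3.25 in WT cells, a difference of 0.50 ± 0.10 (adjusted p = 0.0302, and 0.102 with quantile scaling). It was the higher in sh8 cells on each day, with overlap between days.

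Ndn, a growth-restraining MAGE family protein of the same domain, read -1.26, -1.13, -1.41 and -1.43 in sh8 cells and -1.94, -1.74, -1.68 and -1.61 in WT cells. The lines did not overlap, but the difference of 0.44 ± 0.13 did not pass (adjusted p = 0.0617 by limma). Ube3a, a ubiquitin ligase that only neurons imprint, read between -1.24 and -0.87 in sh8 cells and between -1.06 and -0.64 in WT cells, and was 0.17 to 0.32 lower in sh8 cells each day. Peg12, an intronless gene related to the GSK3 inhibitors, read 0.01, -1.03, -1.47 and -1.49 in sh8 cells and -0.37, -1.11, -0.82 and -0.94 in WT cells. It was the higher in sh8 cells on days -2 and 0 and the lower on days +2 and +4. A second, dimmer Peg12 probe was 0.071 higher in sh8 cells over days +2 and +4 and 0.20 higher over days -2 and 0.

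In the Mest domain Copg2 was lower in sh8 cells, as was Mest at the probe kept but not at all its probes. Copg2, a coat protein of transport vesicles whose 3′ end overlaps Mest, read -0.03, -0.05, 0.16 and 0.33 in sh8 cells, against 0.62, 0.92, 0.97 and 0.84 in WT cells. The lines did not overlap, and the difference was -0.73 ± 0.11 (1.66-fold, adjusted p = 0.0187 by limma), with -0.59 at a second probe. Mest, a paternally transcribed hydrolase known to rise with fat mass, read -7.92, -7.53, -7.50 and -7.20 in sh8 cells and -7.16, -5.02, -5.19 and -4.00 in WT cells. This probe was not well above background on any sh8 array and was on 3 of the 4 WT arrays. At this probe Mest was therefore at least 1.58-fold lower in sh8 cells. The probe passed the filter through WT arrays alone, so the fitted change (-2.19 ± 0.41, limma adjusted p = 0.0249) adds nothing to that bound. A pair of probes for another Mest transcript, well above background on 4 and 2 arrays, differed by 0.37 and -0.07.

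Impact, a translational regulator that inhibits the kinase GCN2, read 1.91, 2.74, 1.80 and 2.14 in sh8 cells, against 3.04, 3.91, 2.37 and 2.63 in WT cells. It was lower in sh8 cells on every day, by -0.84 ± 0.16 (1.79-fold, adjusted p = 0.0267 by limma) and by -1.03 at its second probe. The difference was -1.15 on the first slide and -0.53 on the second. Dlk1 read 5.72, 5.74, 4.89 and 4.50 in sh8 cells, against 5.94, 6.18, 5.21 and 5.03 in WT cells. Dlk1 was thus lower in sh8 cells each day, by 0.22 to 0.52, and the mean change of -0.38 ± 0.10 lay close to the threshold (adjusted p = 0.0477, and 0.0537 with quantile scaling). Its second probe gave -0.55. Asb4, a ubiquitin ligase subunit of the Peg10 domain, read between -3.63 and -3.24 in sh8 cells and between -4.10 and -3.47 in WT cells, and the difference was 0.40 ± 0.10 (adjusted p = 0.0401, and 0.232 with quantile scaling).

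**Figure D2:**
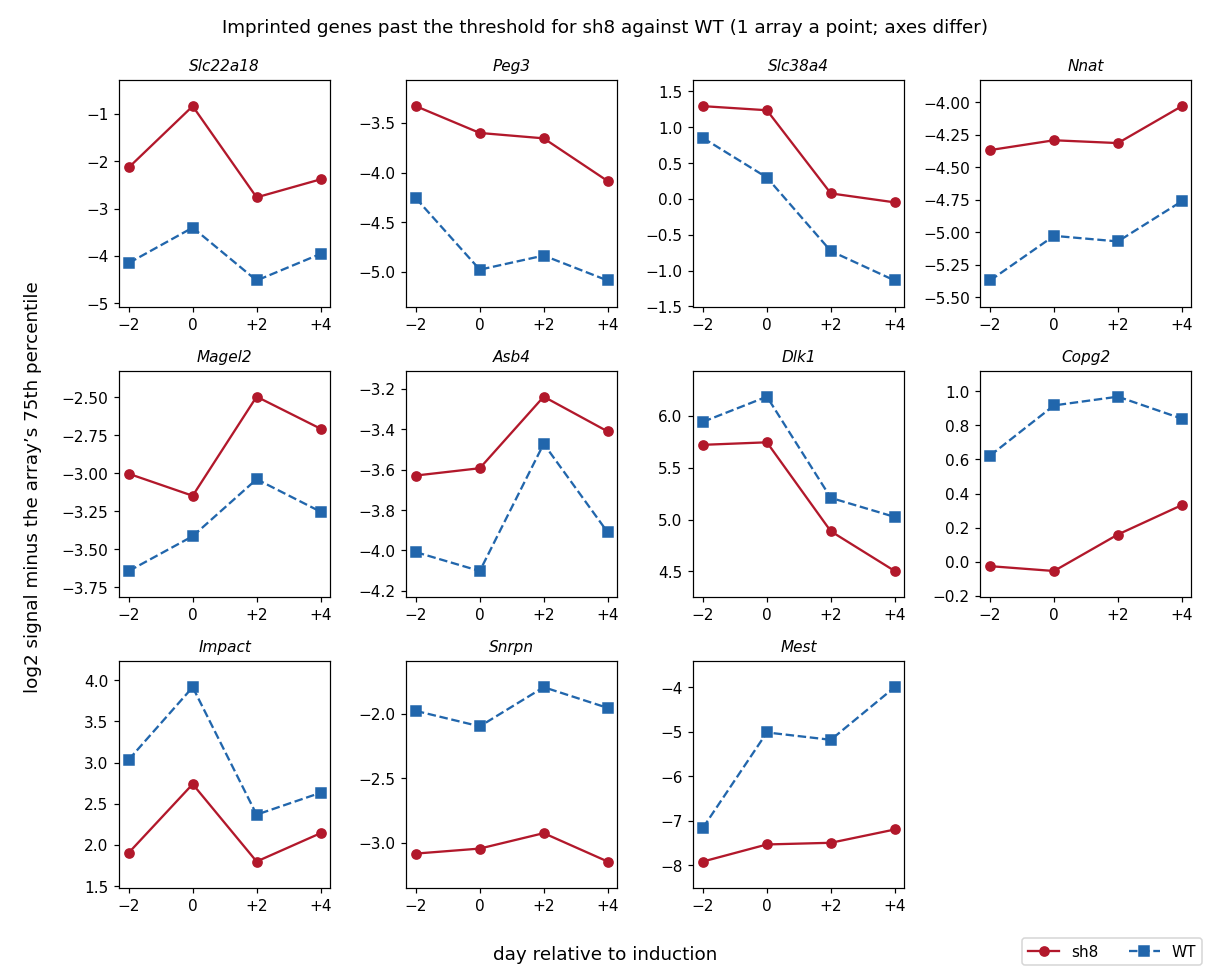
Log2 level (signal relative to the array's 75th percentile) of the 11 imprinted genes past the threshold for sh8 against WT, by day; each point is 1 array, circles are sh8 and squares WT, and the vertical axes differ between panels. The 2 lines run apart on all 4 days in each panel, with sh8 the higher in 6 and the lower in 5. The sh8 readings of Mest were not well above background, and the Asb4 panel shows its brighter probe, opposite in sign to its second.

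Without overlap between the lines were 7 of the 27 genes (25.9%), beside 17.3% of all features: Slc22a18, Peg3, Nnat and Ndn higher in sh8 cells, and Snrpn, Copg2 and, with sh8 readings not well above background, Mest lower. The difference kept a single sign on all 4 days in 14 of 27 genes (51.9%) and in 52.7% of all features, so that share lay near the background. Among the genes outside the threshold, Igf2r, the clearance receptor for Igf2, read 3.51, 4.39, 3.86 and 4.02 in sh8 cells and 3.47, 4.17, 3.89 and 3.97 in WT cells, with differences of at most 0.22 on a day. Meg3 differed by at most 0.17 on a day. Igf2, the fetal growth factor, was dim at -5.26 to -3.86 in sh8 cells and -4.81 to -3.87 in WT cells. Plagl1, a zinc finger regulator of other imprinted genes, read -2.29 to -1.91 in sh8 cells and -2.63 to -1.94 in WT cells at its brightest probe. Zrsr1, a splicing factor homologue, read 0.88 to 1.83 in sh8 cells and 1.14 to 1.86 in WT cells. In none of these did the daily difference exceed 0.84.

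Leaving out a day changed the count of 11. Without day -2, 7 of the 11 passed, and without day 0, day +2 or day +4, 0 genes passed in limma, with 11, 12 and 12 at an unadjusted p under 0.05. Over all 26460 features the fit without day -2 called 4213, and the other 3 fits called 81, 0 and 0. On the second slide alone 6 of the 11 passed, namely Slc22a18, Mest, Snrpn, Peg3, Slc38a4 and Nnat, with Kcnq1ot1 and Ascl2 besides. That fit called 5172 of the 26460 features, and only WT arrays took Mest past the filter. On the first slide alone 0 passed in limma, with 10 at an unadjusted p under 0.05. With quantile scaling the median of all features moved to 0.02, and 50.7% of all calls were higher, beside 62.0% without it. There 4 genes were higher and 4 lower, of 5216 features called.

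On single days, with 1 array a line and no test, 4 of 25 genes were at least 2-fold apart on day -2 (16.0%, beside 10.3% of features measured that day), 5 of 26 on day 0 (19.2%, beside 11.8%), 6 of 26 on day +2 (23.1%, beside 19.6%) and 7 of 27 on day +4 (25.9%, beside 14.8%). Higher in sh8 cells were 2, 3, 4 and 5 of them on the 4 days in order, beside 5.54%, 6.89%, 14.1% and 9.55% of features. Lower were 2 on each day, beside 4.75%, 4.9%, 5.5% and 5.23%. Mest is counted among the lower on days 0, +2 and +4, although only WT arrays took it past the filter. The most positive was Slc22a18 on days -2 and 0 (2.02 and 2.56) and Kcnq1ot1 on days +2 and +4 (2.77 and 1.93). With normexp background the counts were 2, 2, 1 and 1 on the 4 days, with no share of all features given for that setting. Differences of Mest are not ranked, since no sh8 array read it well above background. Nor are those of Cdkn1c on days -2 and 0, when neither line read it well above background. Ppp1r9a, a neuronal actin-binding protein of the Peg10 domain, read -5.82, -3.90, -6.72 and -5.00 in sh8 cells and -5.44, -5.54, -7.22 and -6.57 in WT cells, with differences that ranged from -0.38 to 1.64. Only 2 arrays of each line read it well above background.

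**Figure D3:**
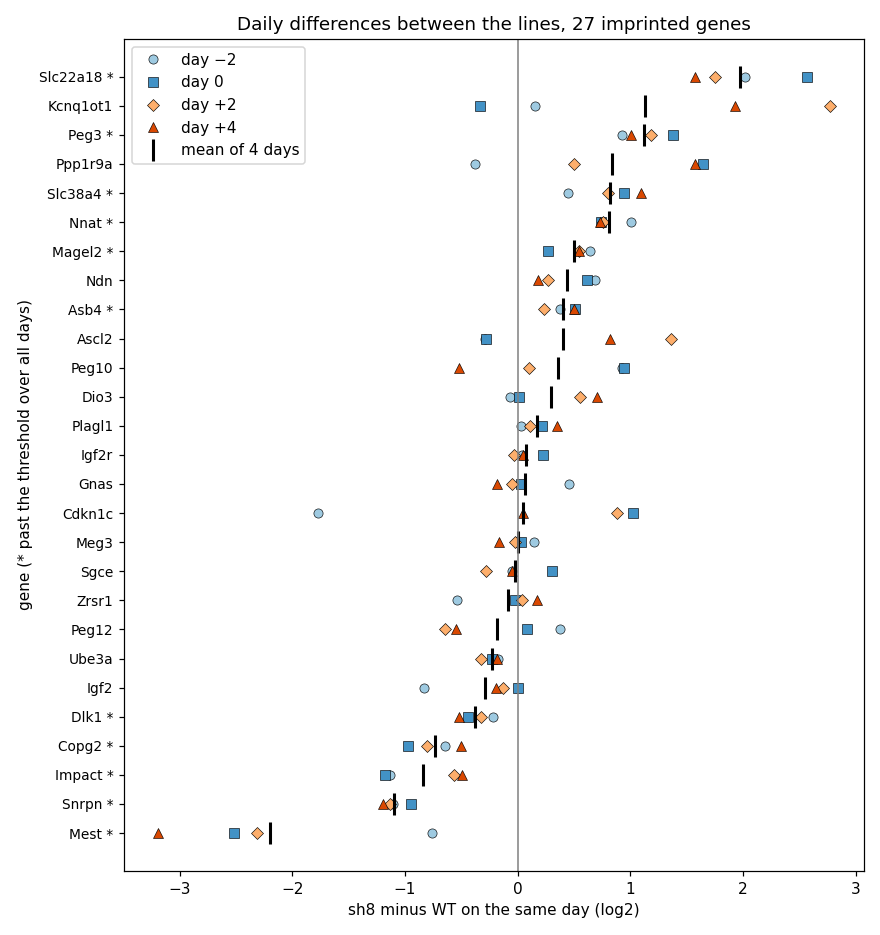
Difference between sh8 and WT on the same day (log2, horizontal axis) for each of 27 imprinted genes, sorted by the mean of the 4 days (black bar); symbols and colours are the days, and asterisks mark the 11 genes past the threshold. The days of Snrpn and Nnat lie close together, whereas those of Kcnq1ot1 spread from -0.34 to 2.77. The points of Mest rest on sh8 readings not well above background. Those of Cdkn1c on days -2 and 0 rest on readings not well above background in either line.

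The second question was how the genes stood after induction, on days +2 and +4, against days -2 and 0. Meg3, Kcnq1ot1, Slc38a4, Dlk1, Slc22a18, Impact, Gnas and Sgce were lower after induction, and Cdkn1c and Magel2 were higher. Slc22a18 and Impact were lower mainly against day 0. Past the threshold were 10 of 27 genes (37.0%), beside 36.3% of all features tested. Cdkn1c is counted among them, although only arrays after induction took it past the filter. The directions were 2 higher (7.41%, beside 26.7% of all features) and 8 lower (29.6%, beside 9.55%). The median change was -0.26 for the 27 genes and 0.17 for all features. With quantile scaling the median of all features moved to 0.03 and that of the 27 genes to -0.38, with 1 higher and 12 lower. That fit called 7657 features, of which 56.7% were higher, beside 73.7% of all calls without it. Lung and red blood cell markers were higher on the same arrays (given above), as were 4 of 5 leukocyte and macrophage markers, with 1 lower, 2 of 4 endothelial and 2 of 6 brain markers. All 5, 4 and 6 of these were well above background on each array after induction, against 3, 2 and 4 before it. Their summed levels overlapped between the periods, at 0.669 to 1.22 after and 0.576 to 1.23 before induction, 1.12 to 1.60 and 1.01 to 1.89, and 2.05 to 3.32 and 2.07 to 3.05. Their part was not tested, and slide and period cannot be told apart.

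In the Dlk1-Dio3 domain 2 of 3 genes were lower. Meg3, its maternally transcribed noncoding RNA, read -3.21, -2.93, -5.83 and -5.93 in sh8 cells over days -2, 0, +2 and +4, and -3.36, -2.97, -5.81 and -5.76 in WT cells. All 4 arrays after induction lay far below all 4 before it, and the lines nearly coincided. Meg3 fell by 2.72 ± 0.10 on the log2 scale (6.57-fold, adjusted p = 0.000767 by limma), -2.81 in sh8 cells and -2.62 in WT cells. The other Meg3 probes, well above background on only 2 and 1 arrays, changed by -0.25 and -0.27. With the mean of the probes the change was -1.48, and with normexp background -0.99, and it passed in both.

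Dlk1, whose values by day are given above, averaged 4.91 after induction and 5.90 before it, with no overlap. Its change of -0.99 ± 0.10 (1.99-fold, adjusted p = 0.00359 by limma) was -1.04 in sh8 cells and -0.95 in WT cells, and its second probe changed by -1.26. Dio3, the enzyme that inactivates thyroid hormone, was dim and did not pass. It read -5.43, -4.91, -4.95 and -4.59 in sh8 cells and -5.36, -4.92, -5.49 and -5.30 in WT cells, so that it lay 0.55 and 0.70 higher in sh8 cells on days +2 and +4.

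In the Kcnq1 domain, Kcnq1ot1, the paternally transcribed antisense RNA that silences its neighbours in cis, read 0.87, 0.23, -0.11 and -1.17 in sh8 cells and 0.71, 0.57, -2.88 and -3.10 in WT cells. The arrays after induction lay below those before it in both lines, and the WT arrays lay far lower than the sh8 arrays. Its change was -2.41 ± 0.58 (5.30-fold, adjusted p = 0.0313 by limma). Cdkn1c, the maternally transcribed cell cycle inhibitor p57, read -8.07, -6.98, -4.44 and -4.16 in sh8 cells and -6.30, -8.00, -5.32 and -4.21 in WT cells. It was well above background on all 4 arrays after induction and on 0 before it. Cdkn1c was at least 2.32-fold higher after induction, and at least 2.42-fold in sh8 cells and 2.22-fold in WT cells. Its probe passed the filter through arrays after induction alone, so the fitted change (2.80 ± 0.51, adjusted p = 0.0148 by limma) adds nothing to those bounds. Slc22a18 was lower after induction, with means of -3.41 after and -2.63 before it, a change of -0.77 ± 0.19 (adjusted p = 0.0323 by limma) over arrays that overlapped. Without day 0 the change of Slc22a18 was -0.26.

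Outside these domains, Slc38a4 averaged -0.46 after induction and 0.92 before it, with no overlap, and changed by -1.38 ± 0.14 (2.60-fold, adjusted p = 0.00359 by limma). Gnas, which encodes the stimulatory G protein alpha subunit, read 5.43, 5.05, 4.54 and 4.32 in sh8 cells and 4.97, 5.03, 4.59 and 4.51 in WT cells. All arrays after induction lay below all arrays before it, by -0.63 ± 0.14 (1.55-fold, adjusted p = 0.0238 by limma). Sgce, the epsilon sarcoglycan of the Peg10 domain, read 1.00, 1.59, 0.55 and 0.67 in sh8 cells and 1.05, 1.28, 0.83 and 0.73 in WT cells. Its periods did not overlap either, with a change of -0.53 ± 0.13 (adjusted p = 0.0298 by limma). Impact changed by -0.66 ± 0.16 (adjusted p = 0.0341) and Magel2 by 0.43 ± 0.10 (adjusted p = 0.0328), both over periods that overlapped. Without day 0 the change of Impact was -0.24.

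**Figure D4:**
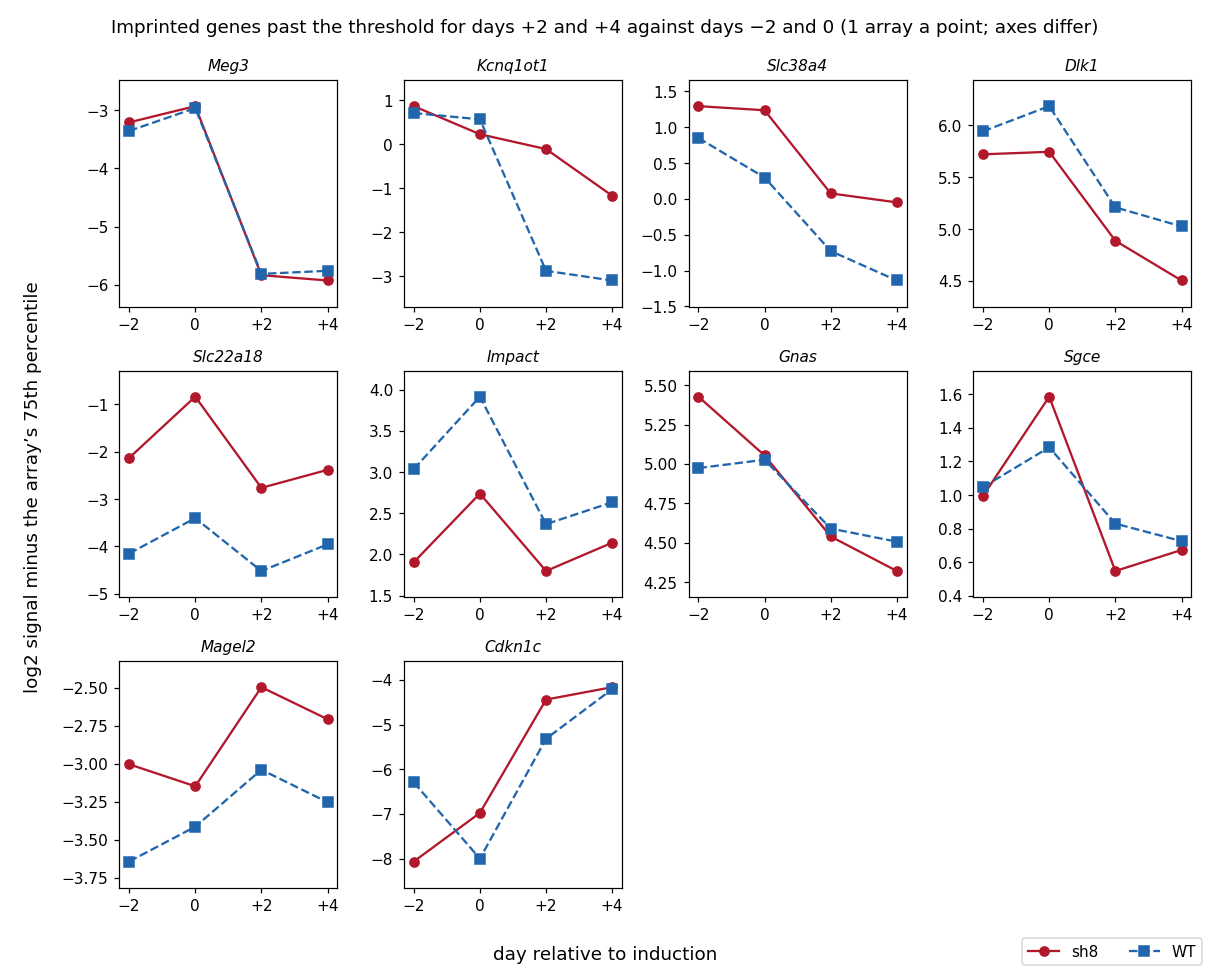
Log2 level (signal relative to the array's 75th percentile) of the 10 imprinted genes past the threshold for days +2 and +4 against days -2 and 0, by day; each point is 1 array, circles are sh8 and squares WT, and the vertical axes differ between panels. Meg3 drops by about the same amount in both lines after day 0, while Kcnq1ot1 drops to -0.11 and -1.17 in sh8 cells and to -2.88 and -3.10 in WT cells.

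The arrays after and before induction did not overlap in 7 of 27 genes (25.9%), beside 23.8% of all features: Meg3, Dlk1, Slc38a4, Cdkn1c, Kcnq1ot1, Sgce and Gnas. The Cdkn1c readings before induction were not well above background. By parental copy, 5 of 17 paternally transcribed genes were lower after induction and 1 was higher, and 2 of 9 maternally transcribed genes were lower and 1 was higher, beside 9.55% of all features lower and 26.7% higher; the remaining call was Gnas, whose copy varies by transcript. The count of 10, from 9600 features called, depended on the fit. It was 6 without day 0, 5 without day +2 and 3 without day +4, where 7209, 7183 and 2834 features were called. It was 3 from the sh8 arrays alone and 4 from the WT arrays alone, of 1545 and 3075 features. It was 14 with normexp background (5 higher and 9 lower, of 13014 features). With a filter of 4 arrays or the mean of a gene's probes it was 12, of 9047 and 9594 features. Meg3 and Slc38a4 passed in all 12 alternatives run, with changes from -3.13 to -0.99 for Meg3 and from -1.53 to -1.23 for Slc38a4.

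Whether the change after induction differed between the lines was tested as an interaction. It was largest for Kcnq1ot1, which changed by -1.19 in sh8 cells and by -3.63 in WT cells. The difference of 2.44 ± 0.38 did not pass over all features (adjusted p = 0.129 by limma), where 0% of features passed, 0 of 26460, and 5262 had an unadjusted p under 0.05. A second Kcnq1ot1 probe changed by -1.07 in sh8 cells and by -4.44 in WT cells. Within the second slide, the line difference of Kcnq1ot1 was 2.35 ± 0.26 (limma adjusted p = 0.0351), and within the first it was -0.091. With normexp background the interaction of Kcnq1ot1 was 1.91 (limma adjusted p = 0.0255), and Peg12 also passed (-0.73, adjusted p = 0.0452). The share of all features passing under that setting is not given here, so these calls are not read as particular to these genes. In the main fit 7 of the 27 genes had an unadjusted p under 0.05: Kcnq1ot1, Ascl2, Peg12, Impact, Dio3, Peg10 and Ndn.

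Ascl2, a helix-loop-helix factor of the placenta in the Kcnq1 domain, read -5.40, -5.38, -4.61 and -5.21 in sh8 cells and -5.11, -5.10, -5.98 and -6.03 in WT cells. It was higher after induction in sh8 cells and lower in WT cells, with an interaction of 1.38 ± 0.24 that did not pass (adjusted p = 0.136 by limma). Peg10, a gene derived from a retrotransposon, read -4.13, -4.63, -4.59 and -5.07 in sh8 cells and -5.06, -5.58, -4.69 and -4.55 in WT cells. The sh8 arrays were the higher by 0.92 and 0.95 on days -2 and 0, and by 0.10 and -0.52 on days +2 and +4.

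For confluence, day 0 against day -2, limma called 0 of 27 genes and 0% of all features, with 6724 features and 7 of these genes at an unadjusted p under 0.05. The closest were Igf2r, at 0.79 ± 0.13 (adjusted p = 0.0702), and Igf2, at 0.97 ± 0.24 (adjusted p = 0.102). Igf2 read -3.86 on day 0 and -5.26 on day -2 in sh8 cells, and -3.87 and -4.42 in WT cells, and both genes were higher on day 0 in each line. Both passed with normexp background (limma adjusted p = 0.0219 and 0.0407), where the share of all features passing is not given here. For day +4 against day +2, 0 of 27 genes and 0% of features passed, with 1441 features and 0 of these genes at an unadjusted p under 0.05.

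Probes for different stretches of a gene disagreed in some cases. Plagl1 had 4 probes. A pair of them, well above background on 6 arrays each, read -5.79, -6.53, -4.75 and -4.55 and -5.38, -5.95, -4.12 and -4.49 in sh8 cells, against -2.72, -2.99, -3.84 and -3.71 and -2.57, -2.60, -3.86 and -3.83 in WT cells. The sh8 arrays of days -2 and 0 did not read them well above background, so the probes were at least 6.61-fold and 6.95-fold lower in sh8 cells then, and the differences over days +2 and +4 were -0.88 and -0.46. Over all days the other Plagl1 probes, bright enough on all 8 arrays, differed by 0.17 and 0.47. The second Asb4 probe read -6.53, -6.47, -6.20 and -5.67 in sh8 cells, against -4.01, -3.62, -4.33 and -4.69 in WT cells. The sh8 arrays of days -2 and 0 did not read it well above background. It was at least 3.39-fold lower in sh8 cells on those days, and over days +2 and +4 the difference was -1.43, opposite in sign to the brighter probe. With the mean of a gene's probes Asb4 was lower in sh8 cells (-0.83, adjusted p = 0.0349 by limma). No direction is therefore settled for Asb4 and Plagl1 in sh8 cells, nor for Mest over all its transcripts, whose probe kept was lower while another, read well above background by 2 sh8 and 2 WT arrays, differed by 0.37.

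**Figure D5:**
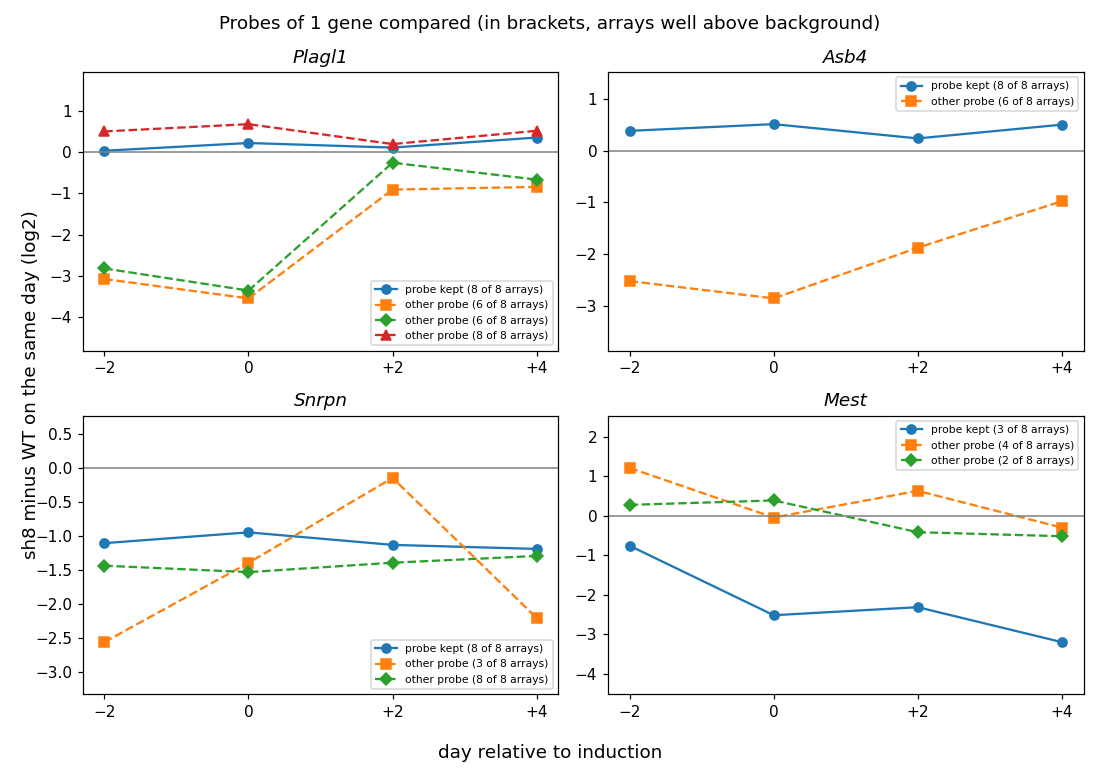
Difference between sh8 and WT on the same day (log2, vertical axis) at each probe of Plagl1, Asb4, Snrpn and Mest; solid lines are the probe kept for the gene and dashed lines the other probes, with the number of arrays well above background in the legend. The Snrpn probes lie below 0 throughout, while a pair of Plagl1 probes and the second Asb4 probe lie far below the probe kept on days -2 and 0, where their sh8 readings were not well above background.

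A wider list of 53 further imprinted genes had 41 measured. In sh8 cells 11 were higher and 2 lower, where 16.8% of all features were higher and 10.3% lower, with a median change of 0.17 beside 0.13. After induction 11 were higher and 5 lower, where 26.7% of all features were higher and 9.55% lower, with a median of 0.22 beside 0.17. The share of these genes higher after induction lay near the background. The lowest p-values for the line went to Pon3 (a lactonase, 1.33 ± 0.14), Tfpi2 (a protease inhibitor), Atp10a (a lipid flippase, 0.69 ± 0.10) and Ampd3 (AMP deaminase, 1.11 ± 0.18). Pon3, Atp10a and Ampd3 were higher in sh8 cells, with limma adjusted p from 0.0115 to 0.0198. Tfpi2 averaged -6.29 in sh8 cells and -8.39 in WT cells, read well above background by 2 arrays of sh8 and 0 of WT. Only sh8 arrays took it past the filter, and no fold or p-value is given for so dim a probe. After induction the lowest p-values went to Klf14 (a zinc finger factor), Kcnk9 (a potassium channel, 2.18 ± 0.19), Zim3 (a zinc finger gene beside Peg3, 1.35 ± 0.14) and Kcnq1 (a potassium channel, 0.80 ± 0.09). Kcnk9, Zim3 and Kcnq1 were higher, with limma adjusted p from 0.00297 to 0.00496. Klf14 averaged -6.10 after and -7.99 before induction, well above background on 3 arrays and 0 arrays. Only arrays after induction took it past the filter, and no fold or p-value is given for it.

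Of 16 genes known to set or keep imprints, 15 were measured. In sh8 cells 3 were higher and 1 lower, where 16.8% of all features were higher and 10.3% lower. Zfp57, which guards imprints during development, was higher in sh8 cells (0.67 ± 0.12, adjusted p = 0.0223 by limma), as were the DNA methyltransferase Dnmt3b (0.50 ± 0.10, 0.0288) and the demethylating enzyme Tet3 (0.54 ± 0.11, 0.0298), and the histone methyltransferase Ehmt2 was lower (-0.53 ± 0.09, 0.0231). After induction 3 were higher and 2 lower, where 26.7% of all features were higher and 9.55% lower. These were led by Tet1 (1.58 ± 0.12, adjusted p = 0.00218), Dnmt3b (-0.90 ± 0.10, 0.0047), Setdb1 (1.08 ± 0.13, 0.0051) and Dnmt3a (0.48 ± 0.09, 0.0174), of which Dnmt3a turned to -0.27 without day -2.

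Dlk1's partner genes had 7 of 8 measured. In sh8 cells 0 were higher and 3 lower, where 16.8% of all features were higher and 10.3% lower. After induction 1 was higher and 3 lower, where 26.7% of all features were higher and 9.55% lower. In sh8 cells Sox9, which lies downstream of Dlk1 in preadipocytes, was lower (-0.67 ± 0.10, adjusted p = 0.0185 by limma), as were Igf2bp3 (-0.49 ± 0.09, 0.0245) and Adam17, the protease that sheds Dlk1 (-0.46 ± 0.12, 0.0476). After induction the RNA-binding proteins Igf2bp1 (-1.09 ± 0.12, 0.00461) and Igf2bp2 (-0.80 ± 0.09, 0.00471) and the receptor Notch1 (-1.39 ± 0.37, 0.0399) were lower, and Adam17 was higher (0.51 ± 0.12, 0.029), a change of -0.028 without day -2. Most of the Igf2bp1 fall came before induction. From day -2 to day 0 it went from 0.51 to -1.07 in sh8 cells and from 0.29 to -1.11 in WT cells. Without day -2 the change of Igf2bp1 was -0.34. Igf1r passed in neither comparison, at 1.49 to 2.42 in sh8 cells and 1.55 to 2.05 in WT cells.

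The state of fat cell formation moved with the lines and the periods. Pparg, the master regulator of fat cells, read -0.58, -0.84, -0.32 and -0.21 in sh8 cells, against 0.57, 0.57, 1.63 and 1.64 in WT cells, and was lower in sh8 cells (-1.59 ± 0.17, adjusted p = 0.0116 by limma). Fabp4, the fat cell fatty acid carrier, was lower as well (-1.53 ± 0.13, 0.0101). The summed level of the 7 fat cell markers was 12.0 to 26.4 in sh8 cells and 36.3 to 69.3 in WT cells. It was 16.8 to 69.3 after induction and 12.0 to 50.3 before it. Only 3 of the 7 passed as lower in sh8 cells and 0 as higher, beside 10.3% and 16.8% of all features. The median of the 7 was higher in sh8 cells on days -2 and 0 (-3.93 and -3.97, against -4.51 and -4.21 in WT cells). On days +2 and +4 it was lower (-2.79 and -3.37, against -2.54 and -1.50). Adipoq, a hormone of mature fat cells, read -6.99, -7.49, -4.92 and -5.01 in sh8 cells and -6.77, -6.69, -4.51 and -1.50 in WT cells. It was well above background on all 4 arrays after induction and on 0 before it. The part of these shifts in the values of the imprinted genes was not tested.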

How the data were processed

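RNA of 8 cell samples was read on 1-colour Agilent arrays. Agilent Feature Extraction 11.0.1.1 quantified the spots, per the file headers, and its processed intensity is the value used from the deposited scanner files. A second set of values deposited by the authors is on a log2 scale, with a median of 6.38 in every column. Each column correlated best with its own array; the sources used here do not give how it was normalized, so it served as an alternative. The series text names another array maker, whereas the files are Agilent scanner output.

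Control spots and 46 probes with an outlier flag were left out and repeat spots averaged. Values were log2(processed intensity) minus the array's 75th percentile. Of 39429 probes, 27234 received a symbol through their accessions from RefSeq's GRCm38.p6 table; the headers name mm9, so no coordinate comes from the arrays. Probes well above background on at least 2 arrays were kept, and for each gene the brightest. limma 3.58.1 (lmFit, eBayes) in R 4.3.3, with version 1.17.8 of data.table, fitted day and line (3 residual degrees of freedom) or line by period (2), with Benjamini-Hochberg adjustment over 26460 features at 0.05. Only the fit of the lines was run on simulated data, with line differences held constant over days. That run does not bear on the period and interaction fits. Python 3.11.15 with pandas 2.3.3 and numpy 2.4.6 made the tables. Where no array of a group read a gene well above background, its level there is a bound, set on each array by the higher of its own value and the lowest value well above background. The number of arrays limits the precision.

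Alternatives were quantile scaling, normexp background (offset 50, on the median signal, since the files hold no mean signal), the deposited table, no filter or a filter of 4 arrays, the mean of a gene's probes, slide in place of day, each slide alone, each day left out, and each line alone. The genes and lists were chosen with earlier results of these data known. Every gene kept is named; from the wider imprinted list and the imprint regulators the text names up to 4 with the lowest p per comparison, and all that passed among Dlk1's partners.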

Additional observations from a re-analysis of the deposited data

Results flagged for a closer look

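Ndn and Ascl2 moved in opposite directions in the lines after induction. The Ndn arrays of days +2 and +4 lay below those of days -2 and 0 in sh8 cells (-0.23) and above them in WT cells (0.20). The difference of -0.43 did not pass (adjusted p = 0.237 by limma). Ascl2 lay higher after induction in sh8 cells (0.48) and lower in WT cells (-0.90), a difference of 1.38 (adjusted p = 0.136 by limma). Each line has 2 arrays in a period, and 3 arrays of sh8 and 4 of WT read Ascl2 well above background.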

How the results depend on the processing

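The count of 11 imprinted genes for sh8 against WT was 7 without day -2, 0 without day 0, day +2 or day +4, and 0 on the first slide alone. It lay between 8 and 13 under the other alternatives, where between 5025 and 8586 features were called. After induction the count of 10 became 6 without day 0, 5 without day +2, 3 without day +4, 3 from sh8 arrays alone and 4 from WT arrays alone. With normexp background, 2 genes passed for day 0 against day -2 and 2 for the interaction. The genes at least 2-fold apart numbered 2, 2, 1 and 1 on days -2, 0, +2 and +4 under that setting. No share of all features is given beside these normexp counts, so they are not read as particular to these genes. By construction the normexp offset of 50 narrows the differences of dim probes. Differences between sh8 and WT changed sign for Cdkn1c (-0.12 with quantile scaling, -0.14 in the deposited table, -0.37 on the first slide, -0.28 without day 0 and -0.23 without day +2), Meg3 (0.060 with normexp, 0.090 on the first slide, 0.0046 without day +2 and 0.053 without day +4), Kcnq1ot1 (-0.091 on the first slide), Mest (0.37 with a filter of 4 arrays) and Asb4 (-0.83 with the mean of its probes). The last 2 follow from the probe used. After induction Dnmt3a turned to -0.27 and Adam17 to -0.028 without day -2. The cause of the other changes was not tested. By replicate number, no paired analysis was possible because every sample carries the number 1; the comparison of the lines sets arrays of the same day against each other in every fit but the one with slide in place of day. Dim probes limit Mest, Cdkn1c, Ascl2 and Ppp1r9a.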

Other observations

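Airn, the noncoding RNA that silences Igf2r from the paternal copy, was chosen after its values were seen. It read 1.11, 2.03, 1.42 and 0.69 in sh8 cells on days -2, 0, +2 and +4, against 0.46, 1.44, -0.14 and -0.29 in WT cells. It was higher in sh8 cells on every day, by 0.94 ± 0.19 (adjusted p = 0.029 by limma), and lower after induction, by -0.84 ± 0.19 (0.0279). Its change after induction differed between the lines by 0.65 ± 0.25, which did not pass (adjusted p = 0.275). Dcn, a matrix proteoglycan of fibroblasts, was also chosen after its values were seen. It read 2.82, 4.65, 4.36 and 4.50 in sh8 cells and 4.57, 5.78, 4.95 and 5.21 in WT cells, and was lower in sh8 cells by -1.05 ± 0.22 (adjusted p = 0.0307 by limma).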
